A study of Rattus norvegicus with 44 samples.

Results

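The genes of DNA replication were 40 named genes whose products load, start and run the replication fork, supply its nucleotides and repack the new DNA. Of these, 37 had a probe set that carried their symbol alone, out of 14324 genes with such a probe set and 27342 probe sets in all, and Mcm3, Mcm4 and Pole2 were not measured by a probe set of their own. Where a gene had 2 probe sets, as Rpa3 and Rrm2 did, the one with the higher mean over the 38 arrays of the larger set was taken. All samples were whole ovaries taken from female Sprague-Dawley rats 4 days after birth and held for 48 h in culture, and each sample was RNA pooled from 2 or 3 ovaries of a single well, which came from several pups of 1 litter. The larger set held 14 untreated controls and 3 samples each with human AMH, BMP4 or FGF7, rat FGF2, GDNF, LIF or PDGFab, or mouse KITLG at 50 ng/ml, and these 8 comparisons share the same controls. The smaller set held 3 samples with human CTGF at 50 ng/ml and 3 untreated controls of its own. The labels call the samples biological replicates but do not tie them to a litter or to a culture day, although a day held controls and only some of the factors, so that day and factor cannot be told apart here. For GDNF the text of the study counts 2 replicates and the labels give 3, and all 3 were used. The question of each comparison is which of these genes differed in level between ovaries with and without the factor.

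DNA is copied once in each cell cycle. The origin recognition complex, Cdc6 and Cdt1 load the Mcm2-7 helicase onto origins, and Cdc45 and the GINS proteins then switch it on, after which polymerase alpha with primase starts each strand, RPA coats the single-stranded DNA, the RFC clamp loader places the sliding clamp PCNA, and polymerases delta and epsilon extend. In the ovary of the newborn rat the oocytes rest in meiotic prophase and do not replicate, whereas granulosa precursors, stromal, epithelial and other somatic cells can, and the oocyte also stores transcripts of many such genes for the later embryo. A whole ovary mixes all of these, so that fewer cells of a type and less RNA per cell cannot be told apart in these values.

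E2F factors are known to drive many genes of this family at the G1 to S transition, and the letters of the promoters were therefore searched for E2F and CCAAT motifs. RefSeq (build GRCr8) lists a promoter, 250 bases before to 50 after the start, for 32 of the 37 measured genes, and Rpa3, Gins4, Cdc6, Rrm2 and Orc1 are not among those listed. One of the 8-base E2F motifs TTTCCCGC, TTTCGCGC, TTTGCCGC and TTTGGCGC, read on both strands, stood in 15 of 32 (46.9%), compared with 2.14% of all 33469 promoters and 3.09% of the 12381 promoters of genes on the array. The motif CCAAT, also read on both strands, stood in 22 of 32 (68.8%), compared with 37.5% of all promoters and 38.2% of those of genes on the array. The 15 genes with an E2F motif were Mcm2, Mcm5, Mcm6, Mcm7, Rpa2, Rfc3, Pola1, Pole, Gins1, Gins3, Cdt1, Lig1, Tyms, Pclaf and Dnmt1. Printed here, with E2F and CCAAT motifs in capitals, are the promoters of Mcm2, a helicase subunit with 2 overlapping E2F matches, of Cdt1, Pclaf and Dnmt1, whose levels are described in full, and of Nasp, which fell with 3 factors and has no E2F match in this window but 2 matches to CCAAT. They lie at chr4:122918045-122918344 (minus strand), chr19:67528999-67529298 (plus strand), chr8:75315467-75315766 (plus strand), chr8:27762792-27763091 (minus strand) and chr5:135319542-135319841 (minus strand), in this order.
Mcm2: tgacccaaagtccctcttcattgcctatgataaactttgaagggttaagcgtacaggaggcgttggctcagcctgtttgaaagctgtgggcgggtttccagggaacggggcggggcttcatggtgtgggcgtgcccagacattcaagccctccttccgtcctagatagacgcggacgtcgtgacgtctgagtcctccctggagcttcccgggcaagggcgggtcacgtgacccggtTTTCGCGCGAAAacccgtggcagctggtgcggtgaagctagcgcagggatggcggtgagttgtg
Cdt1: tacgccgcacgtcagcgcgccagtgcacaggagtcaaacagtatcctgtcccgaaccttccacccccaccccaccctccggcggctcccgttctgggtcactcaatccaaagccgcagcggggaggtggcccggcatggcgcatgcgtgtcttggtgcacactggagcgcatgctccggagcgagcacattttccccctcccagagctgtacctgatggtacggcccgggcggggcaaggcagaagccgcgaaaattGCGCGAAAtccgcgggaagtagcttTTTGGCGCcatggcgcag
Pclaf: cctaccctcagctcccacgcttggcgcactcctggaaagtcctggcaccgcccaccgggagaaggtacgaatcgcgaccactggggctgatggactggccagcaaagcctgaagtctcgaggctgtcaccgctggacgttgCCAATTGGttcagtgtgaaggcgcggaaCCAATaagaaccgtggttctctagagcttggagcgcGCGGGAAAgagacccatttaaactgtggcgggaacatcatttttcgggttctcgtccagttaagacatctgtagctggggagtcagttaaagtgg
Dnmt1: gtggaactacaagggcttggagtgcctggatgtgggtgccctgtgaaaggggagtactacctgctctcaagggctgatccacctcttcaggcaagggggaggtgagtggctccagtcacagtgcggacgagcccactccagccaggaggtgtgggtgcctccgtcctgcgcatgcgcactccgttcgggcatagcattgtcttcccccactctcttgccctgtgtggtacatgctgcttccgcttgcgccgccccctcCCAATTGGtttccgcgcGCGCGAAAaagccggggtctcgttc
Nasp: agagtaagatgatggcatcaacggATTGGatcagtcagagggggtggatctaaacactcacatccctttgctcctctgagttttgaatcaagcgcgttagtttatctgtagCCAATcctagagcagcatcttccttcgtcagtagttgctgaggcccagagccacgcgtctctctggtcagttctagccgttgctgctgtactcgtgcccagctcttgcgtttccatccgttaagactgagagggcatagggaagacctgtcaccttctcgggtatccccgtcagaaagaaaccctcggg
In Cdt1 both E2F matches begin after the start site, at bases 7 and 32, and in Pclaf the single match lies before it. A match describes letters, not a bound factor.

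The control levels of all 37 measured genes are given first, by role. Levels are log2 expression values, and since each probe set responds in its own way a higher value of 1 gene than of another is not a larger amount of transcript. For the origin factors the control means were 6.49 (Orc1), 7.89 (Orc6), 7.32 (Cdc6) and 7.08 (Cdt1). For the helicase and its activators they were 9.15 (Mcm2), 8.31 (Mcm5), 9.44 (Mcm6), 9.58 (Mcm7), 8.48 (Mcm10), 7.25 (Cdc45), 7.21 (Gins1), 7.27 (Gins2), 7.75 (Gins3) and 7.86 (Gins4). For the polymerases and primase they were 8.90 (Pola1), 7.61 (Pola2), 9.45 (Prim1), 8.66 (Prim2), 7.12 (Pold1) and 7.68 (Pole). The sliding clamp and its partners followed the same plan of 1 probe set a gene. Their control means were 10.02 (Pcna), 7.73 (Pclaf, a PCNA-binding protein), 10.21 (Rfc1), 8.45 (Rfc2), 8.38 (Rfc3), 9.89 (Rfc4) and 8.14 (Rfc5), and those of the RPA subunits were 10.59 (Rpa1), 8.17 (Rpa2) and 8.69 (Rpa3). Fen1 and Lig1, which trim and join Okazaki fragments, had 6.88 and 8.89, and Rrm1, Rrm2 and Tyms, the enzymes of deoxynucleotide supply, had 5.46, 8.32 and 10.22. Nasp, a chaperone of histones H3 and H1, had 9.06 and Dnmt1, which copies DNA methylation onto the new strand, had 10.61.

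The 3 genes whose probe sets read highest, which does not order the genes by amount, ranged over the controls from 9.43 to 11.17 with a median of 10.68 (Dnmt1), from 10.09 to 10.85 with a median of 10.66 (Rpa1) and from 10.06 to 10.38 with a median of 10.20 (Tyms). The 3 whose probe sets read lowest ranged from 6.35 to 7.35 with a median of 6.92 (Fen1), from 5.89 to 7.04 with a median of 6.50 (Orc1) and from 5.34 to 5.63 with a median of 5.47 (Rrm1). The median SD between controls was 0.23 for the 37 genes and 0.20 for all probe sets. Dnmt1 had an SD of 0.47 and Pclaf one of 0.43, compared with 0.08 for Rrm1 and 0.12 for Tyms. Rrm1, at 5.34 to 5.63, lay below the median of the arrays (5.93 to 6.01), and whether it was detected was not tested.

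One group of arrays stood apart and touches these genes. Control 1 and sample 1 of FGF2, KITLG and LIF deviated from their groups alike over all probe sets (r = 0.547 to 0.74 between 2 of the 4), although they belong to 4 different groups. Dnmt1 was 9.43, 9.52, 9.35 and 9.49 on them and at least 10.17 on the other 34 arrays. Rpa1 (at most 10.09 on the 4 and at least 10.11 elsewhere), Pola1 (8.58 and 8.65), Orc1 (6.11 and 6.18) and Orc6 (7.27 and 7.45) lay below all other arrays in the same way. Thus 5 of 37 genes were lower on all 4 of these arrays than on any other and 0 were higher, compared with 1.85% of all probe sets lower and 1.5% higher. Among the other replication genes of the list described later Orc5, Cdc7, Mcm8, Donson, Uhrf1 and Top1 did the same.

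The 12 measured oocyte markers averaged 8.12, 7.72, 8.48 and 8.69 on these 4 arrays and 8.99 to 9.90 on the others, with Gdf9, Zp1 and Dazl below every other array. Surface epithelium markers averaged 8.68 to 8.95 on the 4 arrays and 7.67 to 8.62 on the others, macrophage markers 7.40 to 7.72 and 6.0 to 7.39, and endothelium markers 6.72 to 7.03 and 7.07 to 7.92. The means of the pregranulosa, stroma and theca, mast cell, erythroid and leukocyte markers overlapped between the 4 arrays and the others, although the pregranulosa markers Inha (at most 7.46 on the 4 and at least 7.97 elsewhere) and Hsd17b1 (4.93 and 4.99) lay below all other arrays. Of all these marker lists limma called Wnt4, a pregranulosa marker, higher with LIF (0.79, adjusted p = 0.0156) and Upk1b, a surface epithelium marker, higher with FGF2 (1.24, adjusted p = 0.026), and no other gene with any factor. The part of these cell types in the levels of the replication genes was not tested. Without these 4 arrays the genes called were 2 with BMP4, 0 with FGF2, 2 with FGF7 and 1 with PDGFab. None was called with AMH, GDNF, KITLG or LIF. The study criteria described below were then met by 4 genes with AMH, 8 with BMP4, 5 with FGF2 and 7 with FGF7. With GDNF, KITLG, LIF and PDGFab they were met by 0, 5, 3 and 4. Shares of all probe sets were not computed without these 4 arrays, so these counts have no baseline.

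**Figure D1:**
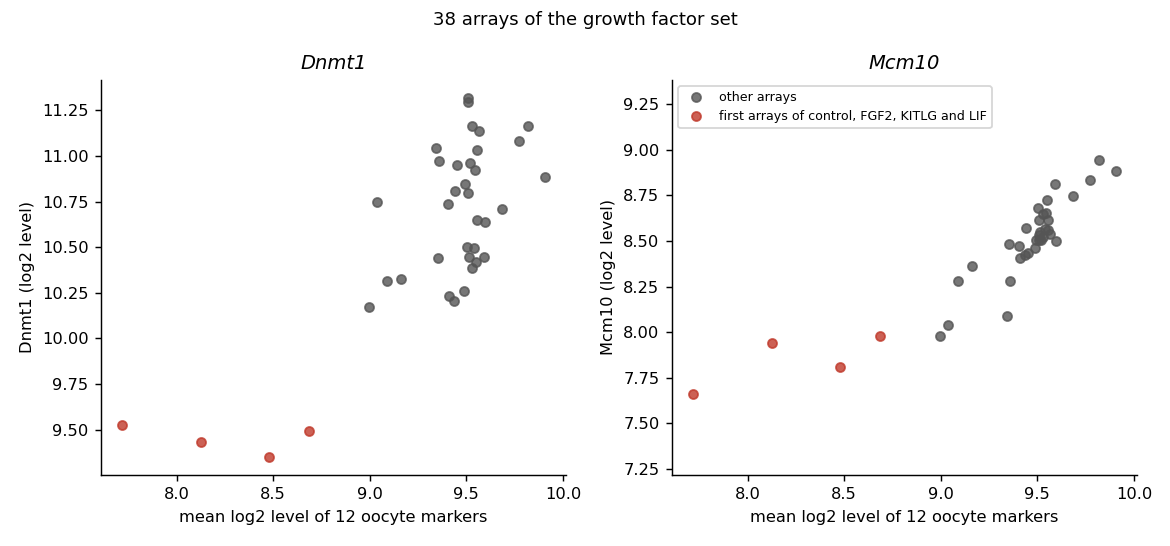
Each point is 1 of the 38 arrays, with the mean log2 level of 12 oocyte markers on the horizontal axis and the log2 level of Dnmt1 (left) or Mcm10 (right) on the vertical axis. The 4 red points, the first arrays of the control, FGF2, KITLG and LIF groups, lie at the left. On them Dnmt1 is at 9.35 to 9.52, below all other arrays, and Mcm10 at 7.66 to 7.98, where 1 further control also lies at 7.98. Outside these 4 arrays Pearson's r with the marker mean was 0.651 for Dnmt1 and 0.889 for Mcm10 over 13 controls. Over 21 treated arrays it was 0.219 and 0.919.

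Across the 9 comparisons few of the 37 genes passed the test, and each one that passed in the fit with equal weights for all arrays was lower with the factor. The test was limma's, against the controls of the same set, and a gene was called at a Benjamini-Hochberg adjusted p under 0.05 over all probe sets. With BMP4 and with FGF7 there were 2 calls each, Rpa3 and Nasp, compared with 0.274% and 0.0805% of all probe sets in either direction. With FGF2 the single call was Nasp (0.94% of all probe sets) and with PDGFab it was Rpa3 (0.234%). None of the 37 was called by limma with AMH, GDNF, KITLG, LIF or CTGF, where 0%, 1.89%, 0.0439%, 0.267% and 0% of all probe sets were called. At an unadjusted p under 0.05 these 5 comparisons held 4, 0, 8, 3 and 0 of the 37 genes, beside 5.08%, 17.1%, 8.66%, 7.25% and 3.12% of all probe sets. For BMP4, FGF2, FGF7 and PDGFab the counts were 7, 6, 6 and 4, beside 8.97%, 12.2%, 7.57% and 9.79%. The plain two-sample test of the methods, adjusted in the same way, called 0 of the 37 in every comparison. With array quality weights limma called further genes: Rfc4 and Gins4 lower with BMP4, Rpa3 lower with FGF2, Rfc4 and Pclaf lower and Cdt1 higher with FGF7, Tyms with GDNF, Rpa3, Nasp and Rfc4 lower with KITLG, Nasp lower with LIF, and Nasp and Pclaf lower with PDGFab. When the fit held the treated arrays and the controls alone, limma called 0 of the 37 genes with any of the 8 factors. Under the plain test, the array weights and this last fit, calls over all probe sets were not counted. Whether the further calls with weights are particular to these genes is therefore not known.

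A wider net is the set of criteria that the study used, applied to limma's p, which asks for an unadjusted p under 0.05, linear means that differ by 10 or more, and a ratio between them that is 1.2 or higher, or 0.83 or lower. By these criteria 4 genes were lower and 0 higher with AMH (0.731% and 1.42% of all probe sets), and 7 lower and 0 higher with BMP4 (2.37% and 2.11%). With FGF2 there were 4 lower and 1 higher (2.36% and 4.43%), and with FGF7 5 lower and 1 higher (2.12% and 2.04%). With GDNF none of the 37 met the criteria (4.03% lower and 1.96% higher over all probe sets). With KITLG there were 7 lower and 0 higher (2.28% and 2.17%), with LIF 3 lower and 0 higher (0.969% and 2.85%), with PDGFab 4 lower and 0 higher (1.69% and 3.64%), and with CTGF none of either kind (0.443% and 0.318%). Single arrays moved these counts by more than 1.5 times. With AMH 0 genes met the criteria without sample 2 and 2 without control 3, with BMP4 4 without sample 1, and with FGF2 11 without sample 2 and 3 without control 7. With KITLG 4 met them without sample 1 and with LIF 5 without sample 3, while GDNF had 1 without sample 2, control 2 or control 6, and CTGF 1 without its control 1 and 2 without its control 3. The median change of the 37 genes lay between -0.09 (KITLG and LIF) and 0.04 (GDNF).

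**Figure D2:**
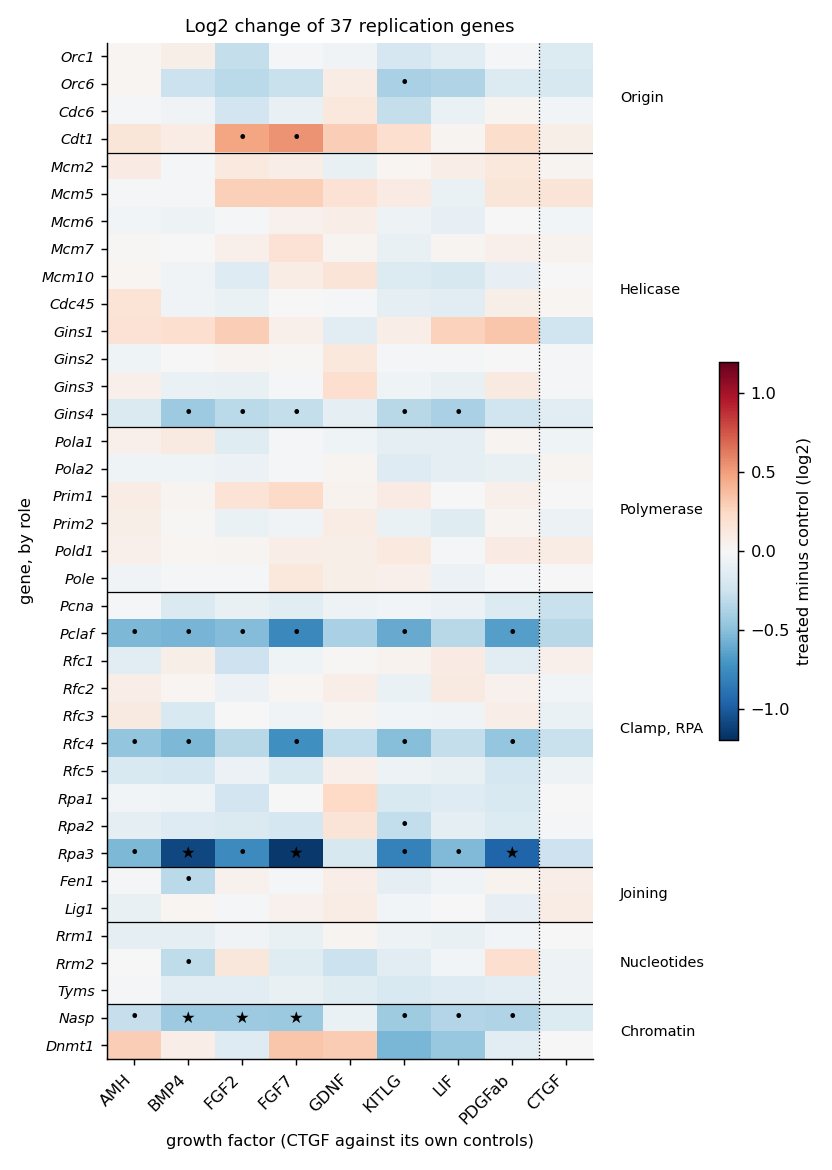
Rows are the 37 measured genes by role and columns the 9 comparisons, with colour for the log2 change (treated minus control, scale -1.2 to 1.2). Stars mark adjusted p under 0.05 and dots genes that met only the study criteria. The deepest blue cells are Rpa3 with FGF7 (-1.16) and with BMP4 (-1.09), and most of the helicase and polymerase rows are close to white.

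Rpa3, the smallest subunit of the single-strand binding complex RPA, had the largest fall of the 37 genes, with BMP4, FGF7 and PDGFab. Its level in the 14 controls ranged from 8.18 to 9.36 with a median of 8.60. It was 7.87, 7.52 and 7.42 with BMP4, 7.56, 7.74 and 7.30 with FGF7, and 7.80, 7.67 and 7.72 with PDGFab. All 9 of these arrays lay below the lowest control. The log2 change was -1.09 (SE 0.21, adjusted p = 0.0134) with BMP4, -1.16 (adjusted p = 0.0115) with FGF7 and -0.96 (adjusted p = 0.034) with PDGFab, which are ratios of 0.469, 0.448 and 0.514. For each of these the exact two-sided permutation test over 680 splits of the arrays gave p = 0.00147, the smallest that 3 against 14 samples allow. Adjusted by Benjamini-Hochberg over the 37 genes and 9 comparisons, this permutation p was 0.0612. With BMP4, FGF7 and PDGFab 3, 4 and 2 of the 37 genes had all 3 treated arrays below every control. Over all probe sets the shares were 0.625%, 0.6% and 0.355%.

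With the other factors Rpa3 had lower means but the arrays overlapped the controls. It was 8.38, 7.96 and 7.44 with FGF2 (change -0.76, adjusted p = 0.0652) and 8.33, 7.58 and 7.74 with KITLG (-0.81, adjusted p = 0.134). With AMH it was 8.48, 7.53 and 8.46 (-0.53) and with LIF 8.45, 7.78 and 8.27 (-0.53). In both of these groups sample 2 alone lay below all controls, and without it the changes were -0.22 and -0.33. With GDNF it was 8.32, 8.75 and 8.44, inside the range of the controls (-0.19, adjusted p = 0.682). The other probe set of Rpa3 gave -0.94, -1.07 and -0.85 with BMP4, FGF7 and PDGFab (adjusted p = 0.00973, 0.00299 and 0.0181) and passed the threshold with FGF2 as well (-0.71, adjusted p = 0.0255). Whether the 2 probe sets share probes, or read a near-identical copy of the gene, was not tested. The partner subunits passed no threshold: changes of Rpa1 were -0.05, -0.01 and -0.18 and those of Rpa2 were -0.15, -0.21 and -0.16 with BMP4, FGF7 and PDGFab.

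Nasp, which holds newly made histones for assembly behind the fork, fell by a smaller amount with BMP4, FGF2 and FGF7. Its level in the controls ranged from 8.78 to 9.48 with a median of 9.04. It was 8.61, 8.67 and 8.60 with BMP4, 8.58, 8.84 and 8.44 with FGF2, and 8.55, 8.68 and 8.61 with FGF7. The arrays with BMP4 and FGF7 all lay below the lowest control, and 1 array with FGF2 did not. The log2 change was -0.43 (SE 0.09, adjusted p = 0.0251), -0.44 (adjusted p = 0.0113) and -0.45 (adjusted p = 0.0387), which are ratios of 0.741, 0.738 and 0.734. KITLG (8.49, 8.76 and 8.66, change -0.42, adjusted p = 0.0655) and PDGFab (8.59, 8.73 and 8.77, change -0.36, adjusted p = 0.0716) also left all 3 arrays below the controls but missed the threshold. With KITLG 0.3475% of all probe sets lay wholly below the controls. LIF gave 8.61, 8.70 and 8.81 (-0.35) and AMH 8.75, 8.71 and 8.89 (-0.28). With GDNF Nasp was 9.02, 9.00 and 8.90 (-0.08, adjusted p = 0.687). The exact permutation test gave p = 0.00147 with BMP4, FGF7, KITLG and PDGFab and p = 0.00294 with FGF2. Adjusted over genes and comparisons, these permutation p-values were 0.0612 and 0.0979.

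**Figure D3:**
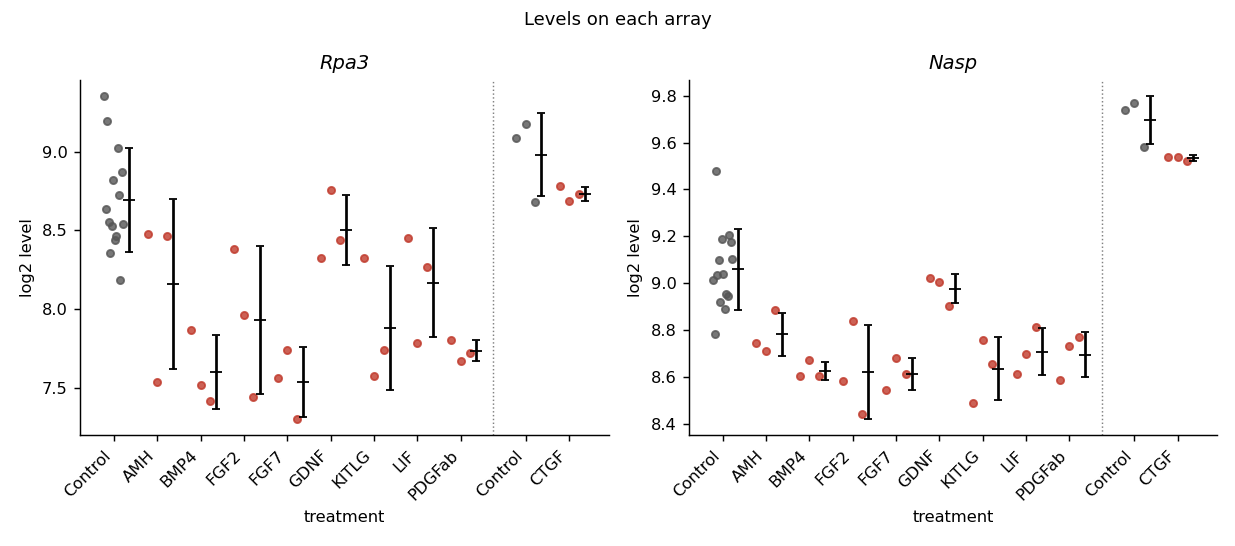
Log2 levels of Rpa3 (left) and Nasp (right) on each array, controls in grey and treated arrays in red, with the mean and SD of each group in black and the CTGF set to the right of the dotted line. For Rpa3 the arrays with BMP4, FGF7 and PDGFab, at 7.30 to 7.87, lie below the lowest of the 14 controls at 8.18.

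Most calls of Rpa3 and Nasp rest on all 3 treated arrays. Without sample 2 Rpa3 with FGF7 and Nasp with FGF2 stayed called (limma adjusted p = 0.0316 and 0.0047). Rpa3 lost its call with BMP4 or with PDGFab when any 1 treated array was left out (adjusted p up to 0.172 and 0.193), and with FGF7 when sample 1 or sample 3 was left out (up to 0.285). Nasp lost its call with BMP4 and with FGF7 when any 1 treated array was left out (up to 0.195 and 0.458), and with FGF2 when sample 1 or sample 3 was left out (up to 0.147). Nasp with FGF7 was also lost without control 4, 7, 12, 13 or 14 (up to 0.0651). Without the 4 arrays that stood apart, Rpa3 was called with BMP4 (-1.04, adjusted p = 0.0084), FGF7 (-1.11) and PDGFab (-0.91), and Nasp with BMP4 (-0.44, adjusted p = 0.0322), whereas Nasp missed the threshold with FGF2 (-0.42, adjusted p = 0.137, with 2 treated arrays) and FGF7 (-0.45, adjusted p = 0.0539).

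Rfc4, Pclaf and Gins4 met the study criteria in several comparisons, always on the lower side, with no adjusted call under the settings used throughout. Rfc4, a subunit of the clamp loader, ranged over the controls from 9.43 to 10.56 with a median of 9.86. It was 9.11, 9.41 and 8.95 with FGF7 and 9.37, 9.30 and 9.39 with BMP4, all below the lowest control. Its change was -0.73 with FGF7 (adjusted p = 0.0676, exact permutation p = 0.00147, or 0.0612 adjusted over genes and comparisons) and -0.54 with BMP4 (adjusted p = 0.191). It met the criteria with AMH (-0.47), KITLG (-0.51) and PDGFab (-0.47) as well. Rfc4 with FGF7 passed the threshold without the 4 arrays that stood apart (-0.68, adjusted p = 0.0344), without control 2 (-0.77, adjusted p = 0.0222) and with repeated quantile normalization (-0.74, adjusted p = 0.0448). The other loader subunits differed less, with changes between -0.25 (Rfc1 with FGF2) and 0.11 (Rfc2 with LIF), none of them called.

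Pclaf, a small protein that binds PCNA during S phase, ranged over the controls from 7.19 to 8.72 with a median of 7.62. With FGF7 it was 7.06, 6.71 and 7.08, all below the lowest control (-0.77, adjusted p = 0.307, exact permutation p = 0.0118, or 0.245 adjusted over genes and comparisons). It met the criteria with AMH (-0.54), BMP4 (-0.56), FGF2 (-0.52), KITLG (-0.61) and PDGFab (-0.66), where the treated arrays overlapped the controls. Single arrays set some of these changes: with FGF2 it was -0.13 without sample 3 and -0.87 without sample 1, with PDGFab -0.39 and with KITLG -0.39 without sample 2. With GDNF (-0.39), LIF (-0.34) and CTGF (-0.33) it did not meet them. It was the gene with the lowest change of the 37 with AMH (7.50, 7.01 and 7.04), GDNF (6.96, 7.71 and 7.34) and CTGF. Pcna itself had changes of -0.17 to -0.02 with the 8 factors, and none met the criteria.

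Gins4, a subunit of the GINS complex that joins the helicase, ranged over the controls from 7.42 to 8.25 with a median of 7.83. It was 7.62, 7.21 and 7.44 with BMP4 (-0.43, adjusted p = 0.213), 7.15, 8.04 and 7.41 with FGF2 (-0.32), and 7.27, 7.37 and 7.78 with LIF (-0.38). These groups overlapped the controls, and the change with FGF2 was -0.13 without sample 1 and -0.57 without sample 2, where it passed the threshold (adjusted p = 0.0356). It met the criteria also with FGF7 (-0.29) and KITLG (-0.33). Its partners Gins2 and Gins3 had changes between -0.09 and 0.20 with the 8 factors and Gins1 between -0.14 and 0.33, and none met the criteria.

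On the higher side the study criteria were met only by Cdt1, the licensing factor that brings the helicase to origins. It ranged over the controls from 6.22 to 7.45 with a median of 7.14. It was 7.47, 7.70 and 7.48 with FGF2, all above the highest control (0.47, SE 0.18, adjusted p = 0.257, exact permutation p = 0.0294, or 0.377 adjusted over genes and comparisons). With FGF2 1 of the 37 genes and 0.699% of all probe sets lay wholly above the controls. With FGF7 Cdt1 was 7.70, 7.45 and 7.71, of which 1 equalled the highest control (0.54, adjusted p = 0.348, exact permutation p = 0.0221, or 0.334 adjusted over genes and comparisons). These 2 changes were the highest of any of the 37 genes in the 8 comparisons with shared controls. Cdt1 was also the highest with KITLG, at 7.24, 7.28 and 7.33, inside the range of the controls (0.20). The highest of the 37 with the other factors was Gins1 for BMP4 (0.20), LIF (0.28) and PDGFab (0.33) and Dnmt1 for AMH (0.29) and GDNF (0.30), none past either threshold. Gins1, a further GINS subunit, ranged over the controls from 6.50 to 7.73 with a median of 7.23, and was 7.47, 7.33 and 7.42 with BMP4, 7.52, 7.21 and 7.74 with LIF and 7.31, 7.67 and 7.63 with PDGFab. Dnmt1 was 11.13, 10.26 and 11.32 with AMH, with 1 array above the highest control at 11.17 and a change of 0.09 without sample 3 and 0.62 without sample 2, and 10.85, 10.81 and 11.08 with GDNF.

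**Figure D4:**
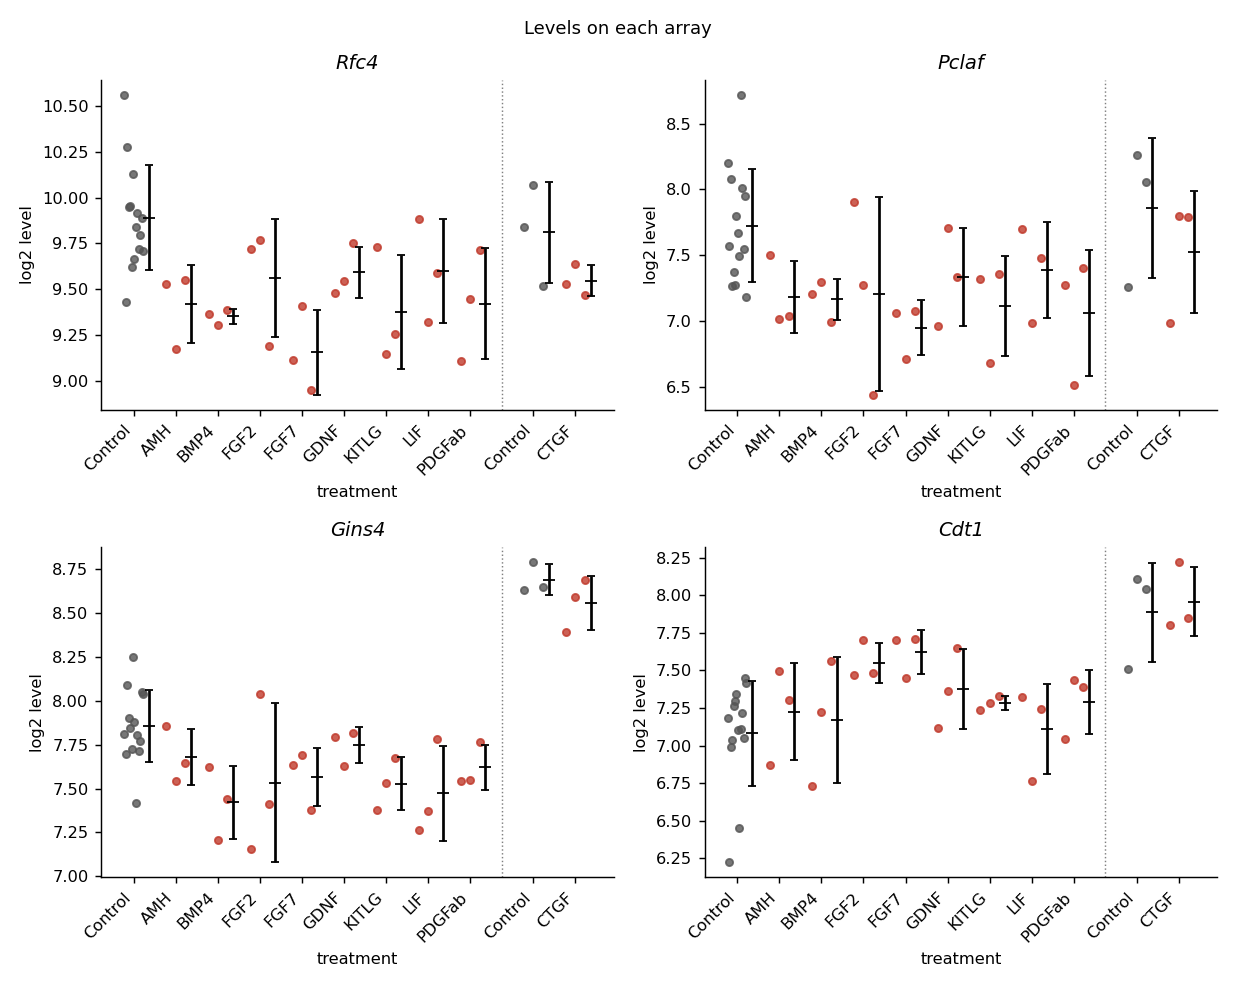
Log2 levels of Rfc4, Pclaf, Gins4 and Cdt1 on each array, controls in grey and treated arrays in red, with the mean and SD of each group in black and the CTGF set to the right of the dotted line. Rfc4 with BMP4 and FGF7 lies below the lowest control at 9.43, and Cdt1 with FGF2 lies above the highest at 7.45.

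Most of the fork machinery met no threshold. Of the helicase subunits Mcm2, Mcm6 and Mcm7 had changes between -0.10 and 0.17 in all 9 comparisons, and Mcm5 between -0.08 and 0.29. The polymerase and primase genes Pola1, Pola2, Pold1, Pole, Prim1 and Prim2 had changes between -0.15 and 0.23. None of these 10 genes met the study criteria in any comparison. Single entries at the criteria were Fen1 (-0.33) and Rrm2 (-0.31) with BMP4, and Orc6 (-0.39) and Rpa2 (-0.30) with KITLG. Without the 4 arrays that stood apart, Orc6 with KITLG was -0.33, Dnmt1 with KITLG went from -0.55 to -0.29 and with LIF from -0.45 to -0.21, and Dnmt1 with FGF2 turned from -0.16 to 0.22.

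A score over the 37 genes, the mean of their log2 levels after each was scaled to mean 0 and SD 1 over the arrays of its set, overlapped between treated and control arrays with every factor. In the controls it ranged from -1.14 to 0.88 with a mean of 0.17 (SD 0.64, n = 14). Treated minus control was -0.12 with AMH, -0.45 with BMP4, -0.34 with FGF2, -0.22 with FGF7, 0.11 with GDNF, -0.52 with KITLG, -0.42 with LIF and -0.21 with PDGFab. Every one of these is smaller than the SD of the controls. Single arrays set several of them: FGF2 gave scores of -1.19, 0.91 and -0.25, and its difference turned to 0.17 without sample 1. The difference also turned with FGF7 without sample 3 (0.03), with PDGFab without sample 1 (0.11) and with GDNF without sample 3 (-0.04). Without the 4 arrays that stood apart the differences were -0.25 with KITLG, -0.22 with LIF and 0.11 with FGF2.

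**Figure D5:**
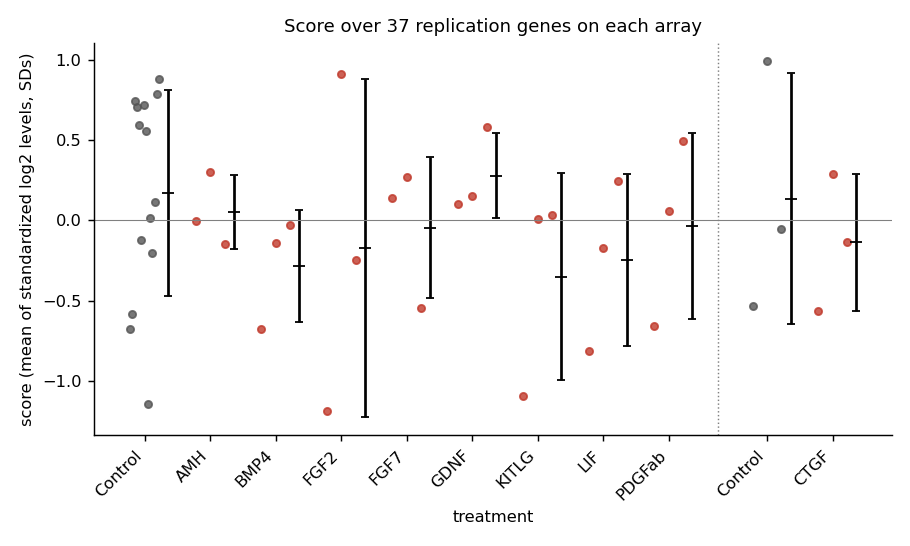
The score over 37 replication genes on each array (vertical axis, in SDs of each gene over the arrays of its set), controls in grey and treated arrays in red, with the mean and SD of each group in black and the CTGF set to the right of the dotted line. The 14 controls spread from -1.14 to 0.88, and only 1 treated array, an FGF2 sample at -1.19, lies below them.

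CTGF was measured against controls of its own, and no replication gene passed a test. Pcna was 10.58, 10.77 and 10.79 with CTGF and 10.83, 11.20 and 10.91 in the controls (change -0.27, adjusted p = 0.9999). Nasp was 9.54, 9.54 and 9.52 and 9.74, 9.77 and 9.58 (change -0.16). In neither gene did the groups overlap, and the exact permutation p was 0.1, the smallest that 3 against 3 samples can give. These were the only 2 of the 37 genes wholly lower with CTGF, and 0 were wholly higher. Over all probe sets 4.54% were wholly lower and 3.65% wholly higher with CTGF. Rpa3 was 8.78, 8.69 and 8.73 with CTGF and 9.09, 9.18 and 8.68 without (-0.25), so that the groups overlapped. The highest change was that of Mcm5, at 8.74, 8.97 and 9.08 with CTGF and 8.54, 8.91 and 8.87 without (0.16). The lowest was that of Pclaf, at 6.99, 7.80 and 7.79 with CTGF and 7.26, 8.26 and 8.06 without (-0.33). Both genes overlapped between the groups. Between samples of the same number Mcm5 was higher with CTGF in 3 of 3 (0.20, 0.06 and 0.21) and Pclaf lower in 3 of 3 (-0.27, -0.46 and -0.27), as were Pcna and Nasp. Rfc1 and Pold1 were also higher in 3 of 3, and Rfc2, Rfc4, Rfc5, Pola1, Prim2, Gins1, Tyms, Orc1 and Orc6 also lower. The share of all probe sets with such pairs was not computed. With the pairing as a block limma's adjusted p was 0.496 for Mcm5 and 0.355 for Pclaf. The score changed by -0.27, with an SD of 0.78 between the 3 controls. That difference was -0.63 without control 1 and 0.11 without control 2 of this set.

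Whether the factors differed from one another was tested directly. Over 28 contrasts between 2 of the 8 factors and 37 genes there were 1036 values, of which 0 were called by limma, compared with 0.621% of all probe sets over these contrasts, and 34 had an unadjusted p under 0.05, beside 7.08% of all probe sets. The values nearest to the threshold were those of Rpa3 in FGF7 against GDNF (log2 difference -0.97, SE 0.26, adjusted p = 0.0511) and in BMP4 against GDNF (-0.91, adjusted p = 0.058). Without the 4 arrays that stood apart, 2 were called, Rpa3 in BMP4 against GDNF and in FGF7 against GDNF. With array weights 11 were called, all of them contrasts with GDNF, and with repeated quantile normalization 2, Nasp in BMP4 and in FGF2 against GDNF. Calls over all probe sets also lay mainly in contrasts with GDNF, in the first fit 206 to 1037 in each, and at most 51 in any other. Under the other settings the calls over all probe sets were not counted.

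Few other genes of the pathway and of the cycle were called. A further list held 31 measured genes that act with the replication fork but are not among the 40 (such as Orc5, Cdc7, Mcm8 and Uhrf1). Of these only Tipin and Rbbp7 were called, both lower with FGF2, where 0.94% of all probe sets were called in either direction. At an unadjusted p under 0.05, 8 of the 31 were lower and 1 higher with FGF2, beside 12.2% of all probe sets. Tipin, a fork protection factor, had a mean of 9.67 ± 0.16 (SD, n = 3) with FGF2 and 10.12 ± 0.18 (SD, n = 14) in the controls (-0.44, limma adjusted p = 0.0413). Rbbp7, a histone-binding protein, had 11.05 ± 0.07 (SD, n = 3) and 11.40 ± 0.16 (SD, n = 14) (-0.36, limma adjusted p = 0.0259). The median change of the 31 genes lay between -0.11 (FGF2) and 0.05 (GDNF). Of 18 measured G1/S cyclins, E2F genes and CDK inhibitors and of 25 mitosis genes, 0 were called by limma with any factor. At an unadjusted p the most were 4 of 18 lower with LIF and 4 of 25 lower with KITLG, beside 7.25% and 8.66% of all probe sets in either direction. The mitosis genes had median changes of -0.22 with KITLG, -0.18 with FGF2 and -0.14 with LIF, the 3 factors whose sample 1 stood apart, and between -0.10 and 0.03 with the other 6.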

How the data were processed

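RNA of 44 cultured rat ovary samples was hybridised to Affymetrix Rat Gene 1.0 ST arrays. The authors deposited log2 expression values, made in Partek by RMA with a correction for GC content, the larger set of 38 arrays and the CTGF set of 6 apart from each other, and no test crossed the sets. Array medians were 5.93 to 6.01 and 6.29 to 6.35, and the number of arrays limits the precision.

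Gene symbols came from the platform annotation, with 15097 probe sets of 1 symbol, 323 of several and 11922 unnamed here, and RefSeq kept the symbol of all 37 measured genes. Differences were fitted with limma 3.58.1 (lmFit and eBayes, R 4.3.3) over all arrays of a set and adjusted by Benjamini-Hochberg over all 27342 probe sets, after the script had been tested on simulated data. Single values were also tested by exact two-sided permutation. Python 3.11.15, pandas 2.3.3, numpy 2.4.6 and matplotlib 3.10.9 were used for the rest.

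The genes and lists were chosen with earlier results of these data known. All members were named with their control level, and values were given in full for genes called, for genes that met the study criteria in 3 or more comparisons, for the highest and lowest change in each comparison and for the 3 highest and 3 lowest control means. Of the lists, called genes were named. Genes named for the 4 arrays that stood apart were chosen after their values were seen. The lists were the other replication genes, G1/S, mitosis and markers of oocyte, pregranulosa, stroma and theca, surface epithelium, macrophage, mast cell, endothelium, erythroid and leukocyte.

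In the CTGF set, samples of the same number deviated together (r = 0.843, 0.623 and 0.647, each best with its own number), so numbers were taken to pair samples there, from the data alone, and with the block 0 genes were called as well. Alternatives were the plain two-sample test of the methods, a fit of 2 groups only, a replicate block, array weights, repeated quantile normalization, a filter on the dimmest 25%, averaged probe sets, and arrays left out. The omission of the 4 arrays and the other probe set of Rpa3 were added after seeing the data.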

Additional observations from a re-analysis of the deposited data

How the results depend on the processing

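No called gene changed direction. Of 1085 recomputed changes of named genes, 1022 kept their side of the adjusted threshold, 40 lost it and 23 gained it. Most of the 1085 were of changes not called at first, which could not lose a call. Over 26 alternatives each, Rpa3 kept its call in 21 with BMP4, 22 with FGF7 and 21 with PDGFab. Nasp kept its call in 19 with BMP4, 20 with FGF2 and 13 with FGF7. Of the recomputed counts of genes, 397 were within 1.5 times the first count, which need not be the same genes, 36 were lower and 35 higher. With the plain two-sample test, and with only 2 groups in the fit, the genes called with BMP4, FGF2, FGF7 and PDGFab were 0 each. With array weights they were 4 with BMP4, 2 with FGF2, 5 with FGF7 (Rpa3, Nasp, Rfc4, Pclaf and, higher, Cdt1), 1 with GDNF (Tyms), 3 with KITLG, 1 with LIF (Nasp) and 3 with PDGFab, and 11 between factors, all of these against GDNF. With averaged probe sets FGF2 had 2. Without controls 12, 13 and 14, BMP4 and FGF7 had 1 each (Rpa3). Without the 4 arrays that stood apart, FGF2 had 0 and the contrasts between factors 2, and quantile normalization gave 2 between factors. Calls over all probe sets were not counted under these alternatives, and why the counts moved was not tested.

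Leaving out 1 array in turn gave 0 to 2 genes with BMP4, 0 to 2 with FGF2, 0 to 3 with FGF7, 0 to 1 with KITLG, 0 to 2 with PDGFab, 0 to 2 between factors, and 0 with AMH, GDNF, LIF and CTGF. In the larger set the replicate numbers did not in general pair the arrays (same-numbered correlations -0.56 to 0.74). The exceptions were the arrays that stood apart, where sample 1 of FGF2, KITLG and LIF correlated best with Control 1 (r = 0.74, 0.615 and 0.694). With a replicate block 1 gene was called with each of BMP4, FGF2, FGF7 and PDGFab, Rpa3 each time (in place of Nasp with FGF2), and 0 with AMH, GDNF, KITLG, LIF or CTGF. The 3 arrays per factor limit every count.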

Other observations

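Many replication genes varied with the oocyte markers from array to array, and Mcm10, which helps the helicase to start unwinding, did so most closely. Over the controls 33 of 37 genes had a positive r with the mean of the markers (median 0.604, from -0.48 for Pclaf), among them Rfc2 (0.839), Rpa1 (0.821), Mcm2 (0.814), Prim2 (0.81) and Mcm6 (0.804), and over the treated arrays 35 of 37 (median 0.413). Of all probe sets, 6.63% had an r of at least 0.604 over the controls, and 43.5% one of at least 0.058. Over the treated arrays 7.8% had an r of at least 0.413, and 48.9% one of at least 0.004. The relation over the treated arrays leaned on the 2 arrays whose marker mean lay farthest from the median. Without them r went from 0.673 to 0.395 for Pola2 and from 0.673 to 0.461 for Rpa1. It went from 0.534 to 0.157 for Mcm6 and from 0.413 to 0.026 for Orc6. For some genes it rose, as for Gins3 (0.584 to 0.627). Mcm10 was chosen after its values were seen, as the closest of 74 relations computed (37 genes in 2 sets of arrays), and the arrays share their normalization. Over the 13 controls outside the 4 arrays that stood apart, Mcm10 and the mean of 12 oocyte markers had Pearson's r = 0.889 (permutation p = 0.0001) and Spearman's rho = 0.918 (permutation p = 2e-05), and r = 0.821 without the 2 arrays farthest from the median. Of all probe sets, 44 (0.161%) had an r as high. Over the 21 treated arrays r was 0.919 (permutation p = 1e-05, the smallest the resamples can give) and rho 0.768 (permutation p = 9e-05), with r = 0.792 without the 2 farthest, and no other probe set had an r as high. The treated arrays were shuffled across the factors, so these values do not separate differences between factors from differences between arrays of a factor. None of these permutation p-values is adjusted for the choice among 74 relations. The change of Mcm10 with the 9 factors lay between -0.20 (LIF) and 0.16 (GDNF), none called.

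The 4 arrays that stood apart held lower mitosis genes as well. The mean of 25 mitosis genes was 8.14 to 8.29 on them and 8.36 to 9.02 on the other 34 arrays, and Ccnb2, Bub1, Bub1b, Kif11, Kif23, Tpx2, Nusap1, Prc1, Ttk, Ndc80 and Ect2 were each below every other array on all 4. Ccnb2, a mitotic cyclin that oocytes also store, was 10.40, 9.94, 10.52 and 10.60 on Control 1 and the first FGF2, KITLG and LIF arrays and at least 10.77 elsewhere. The mean of the 37 replication genes overlapped, at 8.08 to 8.21 on the 4 arrays and 8.08 to 8.54 on the others.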
